A study of Mus musculus with 6 samples.

Results

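The genes described here encode 10 Kruppel-like factors: Klf2, Klf3, Klf4, Klf6, Klf7, Klf10, Klf11, Klf12, Klf13 and Klf16. Their sites were taken as the rows of the authors' deposited table of UTX binding whose gene symbol is one of these names, which gave 18 of the 6739 listed sites. UTX, encoded by Kdm6a, removes methyl groups from lysine 27 of histone H3, a mark of silenced genes. Its binding was mapped by CUT&Tag, in which an antibody directs a transposase to cut and tag the DNA near a bound protein. The cells were CD8 T cells with the progenitor phenotype Ly108+CXCR6-, sorted from the pancreatic lymph nodes of NOD mice that carry the NY8.3 transgenic T cell receptor. There were 3 UTX-deficient samples, from UTXTCD.NY8.3 mice in which UTX was deleted in T cells, and 3 WT samples, from NOD.NY8.3 (NY8.3) mice. Both groups carry the NY8.3 receptor. The sources used here do not give the promoter that drives the deletion, the ages of the mice or whether animals were pooled. The comparison was made to find genes that UTX binds directly.

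Kruppel-like factors are transcription factors that bind GC-rich and CACCC sequences through zinc fingers at their C-terminal end. The family is commonly grouped by partners: Klf3 and Klf12 recruit the CtBP corepressors, Klf10, Klf11, Klf13 and Klf16 recruit the SIN3A corepressor, and Klf2, Klf4, Klf6 and Klf7 act largely as activators. In T cells Klf2 maintains quiescence and genes for T cell trafficking, among them S1pr1.

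The deposited table gives a mean per group and no value per sample. Whole reads per library were therefore recovered from the group means, as described under processing, and each library is ranked by its depth because it carries no replicate number. Depth relative to the mean of the 6 libraries was 1.93, 1.07 and 0.00577 in the UTX-deficient libraries and 1.28, 0.916 and 0.792 in the WT libraries. The shallowest UTX-deficient library was close to empty: 1 of its reads was worth 173.2 normalized reads, and it held no read at any of the 18 sites. The UTX-deficient reads below therefore come from 2 libraries. A single read of the near-empty library exceeds the WT mean of every one of these sites but the Klf13 promoter. Its 0 therefore says little about signal. The authors' comparison, the limma fits on all libraries and the means of 3 libraries still count it as a sample. Read numbers are always given from the deepest to the shallowest library of a group. A normalized read is a read divided by the relative depth of its library. At the markers of the sorted cells, 8 of 9 CD8 T cell genes had a listed site, all but Cd3g. Of all protein-coding genes, 22.1% had a site lower in UTX-deficient cells. The CD8 T cell genes held 16 sites, of which 15 were lower in UTX-deficient cells and 1 was higher. The near-empty library held 90 reads at listed sites with recovered reads, and 0 of them at a site lower in UTX-deficient cells. Whether the higher site rests on such reads was not tested. None of 6 B cell markers had a listed site. Of 6 myeloid markers, 1 had a site (Spi1), as did 1 of 8 pancreatic, stromal and endothelial markers (Pecam1).

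UTX signal was found at the annotated promoters of 7 of the 10 Kruppel-like factor genes. It was also found near a gene end of 2 others, Klf10 and Klf16. Little of the signal was left in UTX-deficient cells. Over the genome, a listed site overlapped 2822 of 17492 protein-coding promoters, and 22.1% of protein-coding genes had a site lower in UTX-deficient cells. The 10 genes were chosen with results of these data known, and of the 17 genes Klf1 to Klf17, 9 had a site. Klf13 carried the most signal, over 7 sites, and the site at its start was among the strongest of the table. Klf2, Klf3, Klf4, Klf6, Klf7, Klf10, Klf11 and Klf16 each had a site within 1 kb of an end of the gene, and Klf12 had no listed site. All 18 of 18 sites were lower in UTX-deficient cells in the authors' deposited table, and 81.0% of the 8293 sites tested by the authors were listed there as lower. The table holds only sites with an FDR under 0.05, so this count follows from the way the sites were taken. The median log2 fold of UTX-deficient over WT was -3.72 for the 18 sites and -3.51 for all 6718 lower sites of the authors' deposited table.

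The promoter sequences below show the DNA under the sites that carry most of the results. They are the 250 bases before the annotated start of Klf2 and Klf13, whose sites lie on the start, of Klf11, which had the largest fold of the family, and of Klf12, which had no site. The start that RefSeq gives here for Klf12 lies within the bounds of the gene, far from its outer end, so other starts of Klf12 are not shown. They are given 5′ to 3′ on the gene's own strand, from RefSeq, build GRCm38.p6 (the assembly of mm10). Capitals mark every match, on either strand, to CACCC (a box bound by Kruppel-like factors), GGGCGG (the GC box), CCGGAA (ETS core), TGTGGT (RUNX core), CTA and TAG with any 4 bases between them (MEF2 box) and GTAAACA (forkhead box). Matches to the CACCC and GC boxes can overlap.
Klf2, chr8:72318812-72319061, plus strand: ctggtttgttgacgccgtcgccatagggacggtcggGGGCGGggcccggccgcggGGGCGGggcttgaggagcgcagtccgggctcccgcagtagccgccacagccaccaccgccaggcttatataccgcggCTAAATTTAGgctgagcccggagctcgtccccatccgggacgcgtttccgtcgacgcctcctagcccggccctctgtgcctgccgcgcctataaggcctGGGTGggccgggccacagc
Klf13, chr7:63938916-63939165, minus strand: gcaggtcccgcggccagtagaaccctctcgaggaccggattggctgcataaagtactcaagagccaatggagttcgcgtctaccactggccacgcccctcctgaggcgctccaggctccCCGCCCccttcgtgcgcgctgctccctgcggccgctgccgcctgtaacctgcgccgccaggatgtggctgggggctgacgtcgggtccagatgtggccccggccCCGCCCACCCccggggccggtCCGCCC
Klf11, chr12:24651121-24651370, plus strand: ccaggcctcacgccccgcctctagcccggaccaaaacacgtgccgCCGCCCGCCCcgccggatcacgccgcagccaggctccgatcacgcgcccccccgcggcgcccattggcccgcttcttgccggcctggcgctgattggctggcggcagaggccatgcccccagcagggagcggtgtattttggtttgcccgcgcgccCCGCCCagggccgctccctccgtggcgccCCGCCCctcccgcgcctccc
Klf12, chr14:100149797-100150046, minus strand: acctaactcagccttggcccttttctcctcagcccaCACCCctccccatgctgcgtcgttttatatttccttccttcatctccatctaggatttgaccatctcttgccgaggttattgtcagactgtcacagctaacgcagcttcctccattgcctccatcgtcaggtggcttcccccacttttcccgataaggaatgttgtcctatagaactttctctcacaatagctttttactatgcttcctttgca

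A GC box was present in the promoters of all 7 members whose site overlapped the annotated promoter window (250 bases before to 50 after the start), namely Klf2, Klf3, Klf4, Klf6, Klf7, Klf11 and Klf13. It was present in 42.7% of 17492 protein-coding promoters and in 73.5% of the 2822 that a listed site overlaps. The Klf12 window printed above had none. A CACCC box was present in 4 of the 7 promoters, against 53.2% of all protein-coding promoters and 58.3% of those that a listed site overlaps. The Klf2 promoter holds the one match to the MEF2 box among them. Such a match was found in 3.05% of all protein-coding promoters and in 2.62% of those that a listed site overlaps. MEF2 factors are known activators of Klf2. No match to the ETS, RUNX or forkhead letters was found in the 250 bases before the start of any of the 8 members in the promoter table, which has no entry for Klf10 and Klf16. Over all protein-coding promoters these letters were found in 15.2%, 12.5% and 2.58%, so few matches would be found among 8 in any case. The 7 promoters had a median GC content of 71.6%, from 59.2% at Klf7 to 78.4% at Klf3, and a median of 24 CpG dinucleotides. Protein-coding promoters overlapped by a site had medians of 62.8% and 19, and all protein-coding promoters 55.2% and 10. The window at this internal start of Klf12 had a GC content of 48% and 6 CpG dinucleotides, which does not describe any other start of the gene.

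Klf2, the quiescence and trafficking factor, had 2 sites. The first lay on chromosome 8 from 72318732 to 72319132 (mm10), with its middle 130 bp upstream of the start, and covered the whole promoter printed above. It held 14, 17 and 0 reads in the UTX-deficient libraries and 177, 136 and 98 reads in the WT libraries. Each WT library, at 124 to 148 normalized reads, lay above both deeper UTX-deficient libraries, at 15.8 or less. Per unit of depth, the signal of UTX-deficient cells was 7.48% of that in WT, and WT exceeded UTX-deficient cells 13.4-fold (exact 95% counting interval 9.28 to 19.9). Such intervals, here and below, cover only the counting error of reads pooled over the libraries of a group. They leave out the spread between libraries, and copies of 1 molecule made by PCR cannot be told from separate molecules. At this site the share left was 5.29% in the deepest UTX-deficient library and 11.6% in the second by depth. By limma on the recovered reads the log2 difference was -4.73 ± 1.33 (SE, adjusted p = 0.000388), and without the near-empty library -3.54 ± 0.70 (SE, adjusted p = 0.000106). In WT this site was stronger than 97.8% of listed sites. The other Klf2 site lay from 72330885 to 72331285, beyond the gene, 9431 bp from its nearer end and 12023 bp downstream of its start. It was the weakest of the 18, with 2, 1 and 0 reads in the UTX-deficient libraries and 25, 16 and 7 in the WT libraries. Its log2 fold of -2.53 was the smallest in size among the 18, and its FDR of 0.025 the largest, in the authors' deposited table. It lay above only 3.18% of listed sites by WT level, and it is the member site nearest to the FDR limit of 0.05.

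Klf4, known as a pluripotency factor and as a brake on the division of CD8 T cells in mice, had the weakest promoter site of the family. That site, on chromosome 4 from 55532578 to 55532978 with its middle 303 bp upstream of the start, held 4, 1 and 0 reads in the UTX-deficient libraries and 22, 21 and 23 in the WT libraries. Each WT library lay above both deeper UTX-deficient libraries, although the WT level of 23.1 ± 5.92 normalized reads (SD, n = 3) was under that of the other promoter sites. A long noncoding RNA gene, Gm12506, has its end closer, at 68 bp, and overlaps the site, so the 2 genes cannot be told apart as its bearer.

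Klf6, a widely expressed early response factor, had a site from 5861188 to 5861588 on chromosome 13, with its middle 101 bp upstream of the start. It held 7, 15 and 0 reads in the UTX-deficient libraries and 118, 70 and 65 in the WT libraries. By pooled reads this was the highest share left among the 18 sites, at 8.62% of the WT signal. It was 16.7% in the second UTX-deficient library by depth but 4.33% in the deepest, where Klf4 had the highest share, 8.97%. Each WT library, at 76.4 or more normalized reads, exceeded the highest UTX-deficient library, at 14.0. Klf7, the closest relative of Klf6, had a site on chromosome 1 from 64121514 to 64121914, with its middle 325 bp upstream of the start. That start lies within the bounds of the gene, and the middle of the site is itself inside the gene, 631 bp from its outer end. Its reads were 9, 8 and 0 in the UTX-deficient libraries and 95, 86 and 59 in the WT libraries, so both promoters had similar WT levels, of 83.6 ± 8.05 for Klf6 and 80.9 ± 11.3 for Klf7 (SD, n = 3 WT libraries each). The Klf7 site also overlaps the noncoding gene Gm35880.

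Klf3, the CtBP-dependent repressor, had 2 sites. The promoter site, on chromosome 5 from 64803087 to 64803487 with its middle 234 bp upstream of the start, held 1, 5 and 0 reads in the UTX-deficient libraries and 124, 75 and 66 in the WT libraries. Only 2.24% of the WT signal was left in UTX-deficient cells, a WT excess of 44.6-fold (exact 95% counting interval 20.2 to 123). In the deepest UTX-deficient library 0.59% was left, and in the second 5.33%. Another annotated protein-coding gene, Gm38457, overlaps this site. The second, from 64864609 to 64865009, lay 31908 bp beyond the gene and was weak, with 2, 2 and 0 reads in the UTX-deficient libraries and 28, 18 and 19 in the WT libraries. For Klf12, the other CtBP-binding member, the table has no row, and the lack of a row does not tell an unbound gene from one whose sites missed the authors' FDR.

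Among the 10 genes described, the SIN3A-binding members held 11 of the 18 sites, but 7 of these were assigned to Klf13 alone. They also held 3 of the 4 strongest sites in WT, at Klf13, Klf16 and Klf10. Klf10, a factor induced by TGF-beta, had a site that spans an end of the gene, on chromosome 15 from 38300655 to 38301055. It held 4, 12 and 0 reads in the UTX-deficient libraries and 143, 111 and 76 in the WT libraries. A second site, from 38299044 to 38299444 within the gene and 1467 bp from that end, held 0, 3 and 0 reads in the UTX-deficient libraries and 68, 53 and 38 in the WT libraries. Both overlap the noncoding gene Gm35248. In WT the first site took 67.4 ± 0.61% of the reads of the pair (SD, n = 3), so the division between them varied little between libraries.

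Klf11, a relative of Klf10, had the largest log2 fold of the family in the authors' deposited table, -5.38 (FDR 2.36e-15). Its site lay on chromosome 12 from 24651046 to 24651446, with its middle 125 bp upstream of the start, and the promoter printed above lies wholly inside it. There were 1, 2 and 0 reads in the UTX-deficient libraries and 100, 80 and 46 in the WT libraries. By pooled reads the share left in UTX-deficient cells, 1.32%, was the lowest of the 18. WT exceeded UTX-deficient cells 76-fold with a wide exact 95% counting interval of 25.7 to 371. In the deepest UTX-deficient library 0.69% was left and in the second 2.50%, the lowest of the 18 sites in neither. Klf16, known as a regulator of dopamine receptor genes, had a site on chromosome 10 from 80577447 to 80577847, beyond the gene and 351 bp from its end. Its reads were 1, 11 and 0 in the UTX-deficient libraries and 189, 181 and 106 in the WT libraries, which in WT placed it above 98.7% of listed sites. For Klf10 and Klf16 the start could not be placed, since the promoter table has no entry for them, and distances are to the nearer end of the gene.

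**Figure D1:**
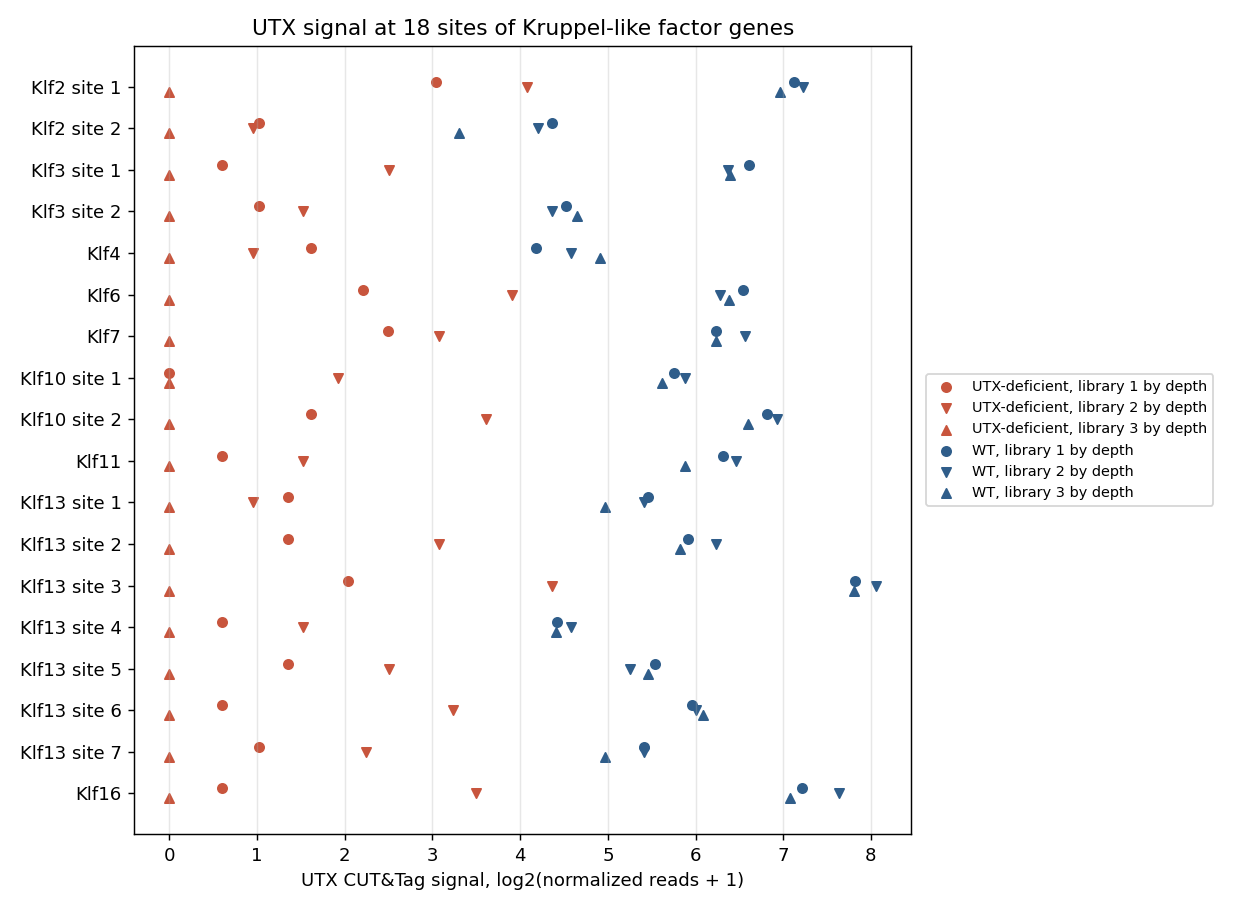
UTX signal at each of the 18 sites, as log2(normalized reads + 1) on the horizontal axis; each point is 1 library, red for UTX-deficient and blue for WT, with the marker giving the rank by depth. Every WT point lies to the right of the points of both deeper UTX-deficient libraries at the same site. The near-empty UTX-deficient library is at 0 throughout, which says little about signal.

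Klf13, first described in human T cells as an activator of the chemokine gene CCL5, was covered more widely than any other member. Its 7 sites reach over 118 kb of chromosome 7, from 63925396 to 64043284, and it is 1 of 7 genes with at least 7 sites in the table, while 81.4% of the 5237 genes with a site have 1. The gene runs on the minus strand from its start at the high end, so higher coordinates are upstream. The strongest site, from 63938878 to 63939278, has its middle 163 bp upstream of the start and covers the whole promoter printed above. It held 6, 21 and 0 reads in the UTX-deficient libraries and 287, 243 and 176 in the WT libraries. In WT it was above 99.7% of listed sites. By limma the log2 difference there was -5.76 ± 1.45 (SE, adjusted p = 6.93e-05), and without the near-empty library -4.69 ± 0.81 (SE, adjusted p = 2.67e-05). The WT excess was 26.4-fold (exact 95% counting interval 18 to 40.3). The libraries differed more widely, with 1.31% left in the deepest UTX-deficient library and 8.25% in the second.

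The gene itself holds a pair of further sites. One, from 63937414 to 63937814, lies 1301 bp downstream of the start, with 3, 8 and 0 reads in the UTX-deficient libraries and 76, 68 and 44 in the WT libraries. The other, from 63925396 to 63925796, lies 13319 bp downstream, with 3, 1 and 0 reads in the UTX-deficient libraries and 55, 38 and 24 in the WT libraries, and a different gene, E030018B13Rik, has the nearest end at 5057 bp.

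Another 4 sites assigned to Klf13 form a row upstream of it, at 35533 to 104169 bp from its start. The nearest of them, from 63974248 to 63974648, was the weakest of the 7, with 1, 2 and 0 reads in the UTX-deficient libraries and 26, 21 and 16 in the WT libraries. The next, from 63999039 to 63999439, held 3, 5 and 0 reads in the UTX-deficient libraries and 58, 34 and 34 in the WT libraries. The third, from 64011984 to 64012384, held 1, 9 and 0 reads in the UTX-deficient libraries and 78, 58 and 53 in the WT libraries. With 63.7 ± 2.97 normalized reads in WT (SD, n = 3), this site 73269 bp from the start was as strong as the site 1301 bp downstream of the start, at 63.1 ± 9.86. The farthest, from 64042884 to 64043284, held 2, 4 and 0 reads in the UTX-deficient libraries and 53, 38 and 24 in the WT libraries. Both middle sites of the row lie within the noncoding gene Gm32633. For 3 of the 4 the nearest end of a protein-coding gene was that of Klf13, and for the farthest it was that of Gm45988, at 87790 bp. Their assignment to Klf13 is the authors', and nothing in the table ties them to its promoter.

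The division of the Klf13 signal over its sites was much the same in every WT library. The site at the start took 47.1 ± 1.65% of the Klf13 reads in WT (SD, n = 3), and the 4 upstream sites together 32.8 ± 2.25%. Of the 69 reads left over the 7 sites in UTX-deficient cells, 27 lay at the start, or 39.1% (exact 95% interval 27.6 to 51.6), which includes the WT share. The interval treats reads as independent.

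**Figure D2:**
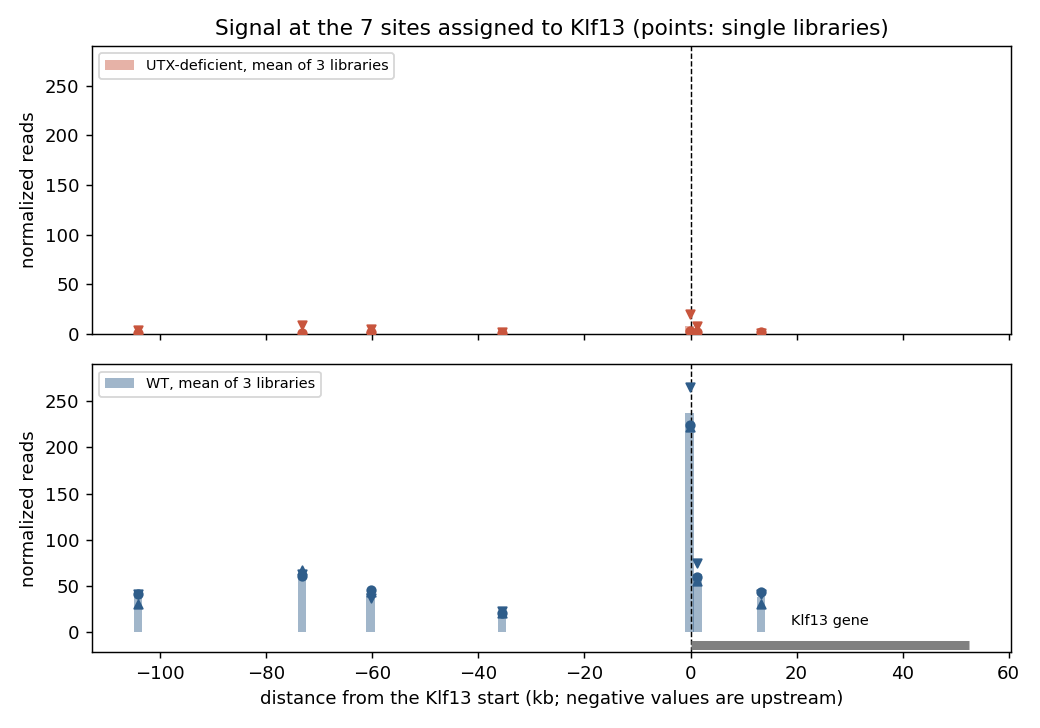
Normalized reads (vertical axis) at the 7 sites assigned to Klf13 against distance from its start in kb, UTX-deficient above and WT below on the same scale; bars are means of 3 libraries and points single libraries. In WT the site at the start averaged 237.3 normalized reads and the upstream sites 21.2 to 63.7, while no UTX-deficient library exceeded 19.6 at any of them. The UTX-deficient bars include the near-empty library, which held no read. At the start the UTX-deficient mean is 7.56, or 11.3 without that library.

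Summed over its sites, Klf13 had 503.1 ± 39.3 normalized reads in WT (SD, n = 3), and the lowest WT library for Klf13, at 468.3, lay far above the highest for Klf10, at 179.0. Klf10, Klf16 and Klf2 followed at 162.7 ± 17.7, 159.7 ± 33.5 and 152.2 ± 17.4 normalized reads (SD, n = 3 WT libraries each). Neighbours among these overlapped between libraries, so their order is not resolved. Klf3, at 109.2 ± 8.84, lay below every Klf2 library and above every Klf6 library. Klf6, Klf7 and Klf11, at 83.6, 80.9 and 74.5 normalized reads, again overlapped, and Klf4, at 23.1, lay below all of them in each WT library. These sums grow with the number of sites listed per gene and measure UTX signal, not transcription.

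**Figure D3:**
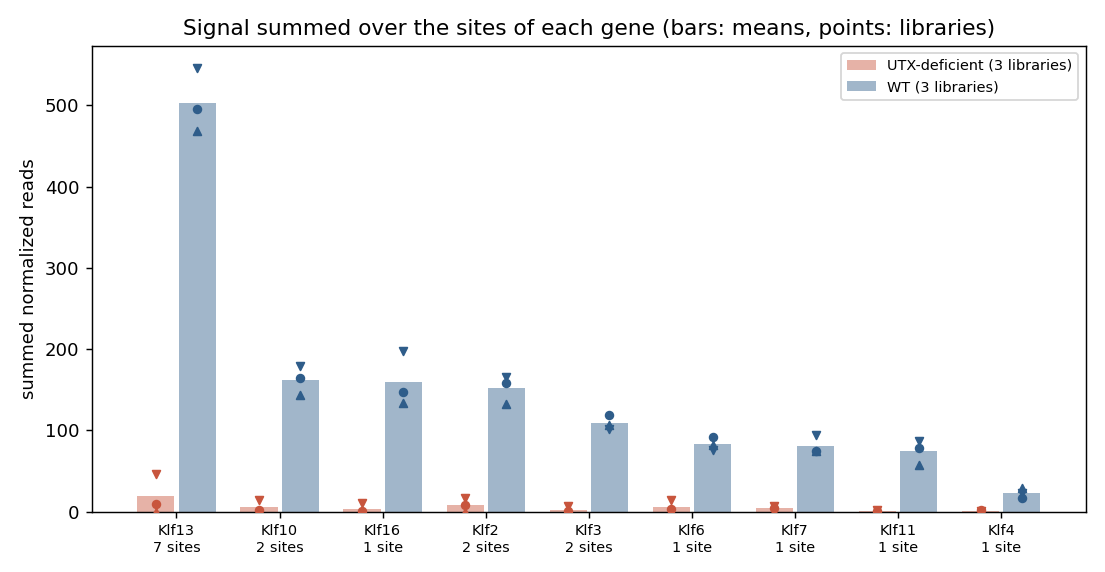
Normalized reads summed over the listed sites of each gene (vertical axis), with UTX-deficient cells in red to the left of WT in blue; bars are means of 3 libraries and points are single libraries. Klf13 stands above the other genes at 503.1 in WT, and the highest UTX-deficient mean is 18.8, for Klf13, or 28.2 without the near-empty library.

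As a group, the Kruppel-like factor sites were stronger in WT than most listed sites, while the share of signal left without UTX was close to that of the table. The mean per site was 1.84, 6.58 and 0 normalized reads in the UTX-deficient libraries and 74.8, 81.7 and 68.3 in the WT libraries. Over all sites lower in UTX-deficient cells it was 1.18, 3.71 and 0 in the UTX-deficient libraries and 40.6, 45 and 37.7 in the WT libraries. In WT, 11 of the 18 sites were among the strongest 25% of listed sites and 7 among the strongest 10%, while 4 lay in the weaker 50%. The median share of signal left was 5.21% for the 18 sites and 4.90% for all. The 9 sites that lay within 1 kb of an end of their gene had a median WT level of 87.4 normalized reads, against 30.2 for all such sites of the table. The 9 farther sites had a median of 38.3, against 31.3. None of these comparisons was tested, since the genes were chosen with results of these data known.

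**Figure D4:**
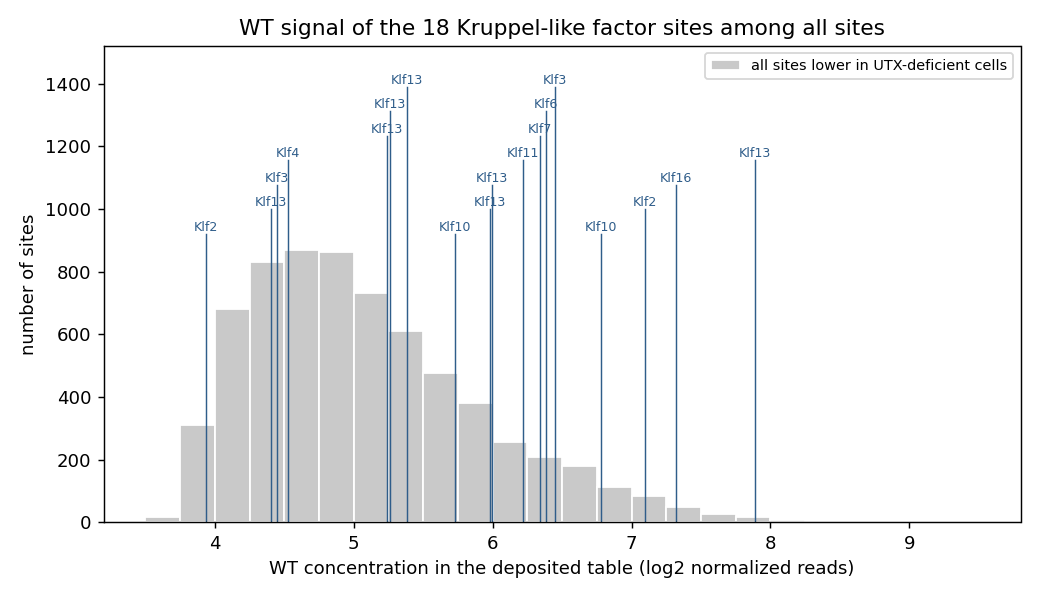
Number of sites (vertical axis) by WT concentration in the authors' deposited table, a log2 value of normalized reads (horizontal axis), for all 6718 sites lower in UTX-deficient cells in grey, with the 18 Kruppel-like factor sites as blue lines whose height carries no value. The lines run from the weaker Klf2 site at 3.93 to the Klf13 promoter at 7.89, and 11 of 18 lie in the strongest 25%.

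By limma on the recovered reads, 18 of 18 sites were lower in UTX-deficient cells, and again 18 of 18 without the near-empty library, where 99.7% of the 6733 sites tested were called lower in either fit. Each WT library lay above each UTX-deficient library at all 18 sites, as at 99.7% of listed sites, which says little for the near-empty library. Both numbers follow from how the table was selected and single out nothing about these genes. The adjusted p-values of the 18 sites by limma reached at most 0.000388 with all libraries and 0.000121 without the near-empty one. The 2 deeper UTX-deficient libraries differed: per depth, the second held more signal than the deepest at 15 of the 18 sites, and at 5642 of 6716 sites over the table. Which sites kept more signal was not shared between them either, with a Spearman correlation of 0.14 between the shares left in these 2 libraries over the 18 sites, none of which held over 21 reads in either. The shares left given above are from the reads of a group pooled.

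By position, 9 of the 18 sites lay within 1 kb of an end of the assigned gene (50%), against 53.2% over the table. Counted by gene, all 9 genes with a listed site had one within 1 kb of an end of the gene, against 67.9% of the 5163 genes of the table that could be placed. Of the 15 sites whose gene start could be placed, 7 overlapped the promoter window (46.7%), against 54.7% over the table. The other 8 were 6 sites of Klf13 and the weaker sites of Klf2 and Klf3. The middle of 4 of the 18 sites lay inside the assigned gene (22.2%), against 52.8% over the table. At 9 of the 18 sites (50%) the assigned gene had the nearest end, against 70.4% over the table, and at 16 of the 18 the nearest protein-coding end was that of the assigned gene.

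Of the 17 mouse genes Klf1 to Klf17, 9 had a listed site (52.9%), while 22.1% of 21900 protein-coding genes had a site lower in UTX-deficient cells. The genes without one were Klf1, the erythroid factor, Klf5, Klf8, Klf9, Klf12, Klf14, Klf15 and Klf17. Sites were also listed at the genes around Klf2. In the counts that follow, the direction says nothing about a list, since 6718 of the 6739 listed sites were lower in UTX-deficient cells. Of 9 genes known to act upstream of it, 7 had a site, and all 10 of their sites were lower in UTX-deficient cells. Map3k3 and Mapk7 encode kinases of the ERK5 pathway, and Mef2d one of its target factors. The best site of Map3k3 held 4, 10 and 0 reads in the UTX-deficient libraries and 131, 91 and 80 in the WT libraries. That of Mef2d held 4, 10 and 0 reads in the UTX-deficient libraries and 205, 201 and 127 in the WT libraries. Foxo3, a forkhead factor, had 4, 12 and 0 reads in the UTX-deficient libraries and 113, 97 and 79 in the WT libraries. Mef2c and Map2k5 had no listed site. All 3 genes of ubiquitin-dependent turnover, Wwp1, Smurf1 and Fbxw7, had one. In the authors' deposited table the log2 fold at the best site was -2.69 for Wwp1, -3.83 for Smurf1 and -4.85 for Fbxw7, the site of Fbxw7 lying 148048 bp from the gene.

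Of 10 cofactors known to bind Kruppel-like factors, 8 had a site, against the 22.1% of all protein-coding genes, and all 11 sites were lower in UTX-deficient cells. Sin3a, the corepressor scaffold, had at its best site 9, 16 and 0 reads in the UTX-deficient libraries and 301, 214 and 183 in the WT libraries. In the authors' deposited table the log2 fold was -4.98 for Ep300, a histone acetyltransferase, and -3.32 for Hdac2, a deacetylase. Ctbp1 had a site and Ctbp2 had none, and Sin3b had none. Among known target genes, S1pr1, which encodes a receptor for exit from lymph nodes, and Ccr7, a chemokine receptor, had 6 listed sites each, all lower in UTX-deficient cells. Itgb7, an integrin of gut homing, had 4, 9 and 0 reads in the UTX-deficient libraries and 79, 74 and 55 in the WT libraries at its best site. The Klf13 target Ccl5 had 0, 2 and 0 reads in the UTX-deficient libraries and 31, 19 and 18 in the WT libraries, 4685 bp from the gene. These lists were made with results of these data known and their counts were not tested.

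The sites most like those of the Klf2 and Klf13 promoters were sought over the 6 libraries, by Euclidean distance of log2(normalized reads + 1). For Klf2 they were assigned to Dthd1, at a distance of 0.19, Fos, at 0.34, and Ikzf1, at 0.44. The Dthd1 site held 13, 18 and 0 reads in the UTX-deficient libraries and 172, 140 and 89 in the WT libraries, and the sites of all 3 genes lie over 10 kb from an end of the gene. For the Klf13 promoter they were assigned to Mylpf, at 0.39, 1110020A21Rik, at 0.41, and Relb, at 0.47, each within 1 kb of a gene end.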

How the data were processed

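UTX CUT&Tag was measured in 3 UTX-deficient and 3 WT samples, and 1 deposited table was used. The submitters' processing notes name DiffBind, MACS2, Bowtie2, cutadapt, FastQC, Picard and SAMtools, and build mm10. The sources used here do not give their roles or versions, or whether peaks were called per sample. Per the file headers, each deposited concentration is the log2 of a group's mean normalized reads, with a lowest value of 0, and the deposited fold is a log2 value of UTX-deficient over WT. The p-value and FDR are the authors' own, and sites past FDR 0.05 alone are in the deposited table. Dividing FDR by p-value and multiplying by rank gives the number of tests, 8293.

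Taken off the log scale and multiplied by 3, a group mean is the total over 3 libraries of whole reads, each read weighted by the inverse of its library's relative depth. These weights were found from the smallest sums, and each sum was solved within its rounding error. Reads were recovered at 6733 of 6739 sites and at all 18 sites of the Kruppel-like factor genes. The recovered relative depths summed to 6.0, as library sizes divided by their mean over 6 libraries do. Absolute library sizes are unknown. Recovery and limma were tested on simulated data. The limma simulation gave the near-empty library an ordinary depth and changed only a small part of the sites. It therefore does not tell how the fit behaves with these libraries, where nearly all sites differ.

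limma 3.58.1 (R 4.3.3, trend) was fitted to log2(normalized reads + 1) over all recovered sites, with Benjamini-Hochberg adjustment over them. Nothing says that samples come from separate animals, so its p-values measure the spread between these libraries. Alternatives were other FDR limits, pseudocounts, a filter, libraries left out and another scaling. The 10 genes, the lists and the rule for named sites (all members; every site of Klf2 and Klf13, and the strongest of each other member; up to 3 genes of a context list by FDR) were chosen with earlier results of these data known. The values of Ccl5 and of the weaker sites of Klf3 and Klf10, and the names Mapk7, Ctbp1 and Sp6, fall outside that rule and were chosen after values were seen. Starts and promoter sequences are from RefSeq, GRCm38.p6, and no exon annotation was used. The count over the list of target genes is not reported here.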

Additional observations from a re-analysis of the deposited data

How the results depend on the processing

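At an FDR limit of 0.01 or 0.001, 17 of the 18 sites were kept in the authors' deposited table, without the weaker Klf2 site, and 9 genes kept a site at 0.01, within 10 kb and within 1 kb of a gene end. Only 9 sites have the nearest annotated gene end at the assigned gene. The median log2 fold of -3.72 became -4.56 as the ratio of group means of recovered reads. The UTX-deficient mean in that ratio includes the near-empty library, which held no read at these sites. The cause of the change was not tested. All 18 sites were called lower by limma with pseudocounts of 0.5 and 4 and with a WT library or the near-empty library left out. The lowest and highest count were thus 18. In these fits 6711 to 6716 of the 6733 sites tested were called lower, since the table was selected for sites that differ. Without either deeper UTX-deficient library, that group keeps 1 library with reads at these sites, so calls of those fits are not counted here. The log2 differences of the 16 named sites ran from -7.01 to -2.97 over all fits with a library left out. They reached -2.01, at the weaker Klf2 site, with a pseudocount of 4. The -7.01, at Klf16, is from the fit without the second UTX-deficient library by depth. It rests on 1 read in the deepest UTX-deficient library and the 0 of the near-empty one. With the filter at 20 normalized reads 17 were called, the weaker Klf2 site being outside the fit. Scaling to the reads in the listed sites, fitted without the near-empty library, sets the groups to equal totals by construction. It moves the median difference without that library from -3.70 to -0.15 for the 18 sites, and from -3.645 to -0.25 for all sites. It leaves 1 site called lower, Klf11, at -1.96, and turns 6 named sites upward, none of them called: the Klf6 site at 0.62, the Klf2 sites at 0.50 and 0.29, Klf7 at 0.40, Klf13 60324 bp upstream at 0.21 and Klf4 at 0.19. No paired analysis was possible because the deposited columns are group means and carry no replicate number. The UTX-deficient values rest on 64, 127 and 0 reads at the 18 sites, against 1722, 1347 and 974 in WT, and of these libraries the near-empty one alone is shallow.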

Other observations

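The SP factors, which share the zinc finger type and the GC box of the Kruppel-like factors, had a listed site at 4 of 9 genes (Sp1, Sp2, Sp4 and Sp6), against 22.1% of protein-coding genes. All 8 of their sites were lower in UTX-deficient cells, as were 6718 of the 6739 listed sites. The Sp1 site, 355 bp from the gene, held 5, 23 and 0 reads in the UTX-deficient libraries and 373, 234 and 201 in the WT libraries. Sp2 had 4 sites, and its best site, 13631 bp from the gene, held 4, 8 and 0 reads in the UTX-deficient libraries and 111, 88 and 61 in the WT libraries. Sp3, the family member most like Sp1 in its broad expression, had no listed site.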
